A study of Mus musculus with 4 samples.

Results

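The transcripts described here are 9 markers of the primed epiblast, followed in mouse embryonic stem cells with and without the chromatin remodeler Chd1. They are the transcription factors Pou3f1, Otx2, Zic2, Sox3, Foxd3 and T, the growth factor Fgf5, the secreted activin antagonist Fst and the adhesion molecule Cdh2. A locus was taken as a member when its gene symbol equalled 1 of these names. Set 1 lists 9 such loci among 16553 and set 2 lists 10 among 16967, so every member is listed in both sets. Foxd3 is listed once in set 1 and under 2 separate loci in set 2.

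The Chd1-null cells were Rosa26CreER;Chd1fl/- cells treated with 1 µM tamoxifen, and the control cells were the same kind of cells treated with ethanol. Exposure lasted 48 to 72 h and was followed by 3 to 5 passages in serum with LIF. Both groups therefore carry the CreER driver at Rosa26 and a null Chd1 allele, and the control cells keep 1 floxed copy. Viable cells were counted and RNA was taken from equal numbers of them, with ERCC transcripts added, in 2 independently derived lines. The libraries form set 1 and set 2, with 1 Chd1-null and 1 control library in each, and whether a set is a line is not stated in words.

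Pluripotent cells of the mouse pass from a naive state, found in the inner cell mass, through a formative state to a primed state, found in the epiblast before gastrulation. Cultures in serum with LIF are mixtures in which most cells are near the naive state and some express early epiblast genes. Otx2 and Pou3f1 are induced early on the way out of the naive state, Fgf5 is the classic marker of the epiblast after implantation, and T marks cells that enter the primitive streak. Foxd3 is also expressed in naive cells.

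Values are FPKM, which count fragments per length of transcript and per size of library. They summed to 466994 in Chd1-null 1, 584520 in control 1, 518032 in Chd1-null 2 and 719549 in control 2. Read depth is unknown, so no counting interval is given. Most transcripts had lower values in Chd1-null cells as deposited, with a median ratio of Chd1-null to control of 0.712 in set 1 and 0.807 in set 2 (log2 ratios of -0.49 over 12311 genes and -0.31 over 12767). Divided by library totals, the median log2 ratios were -0.18 and 0.15. How the added ERCC transcripts entered the values is not stated, so these ratios are not known to be per cell. Each marker is therefore read both as deposited and against its set's median. Pou5f1, the defining factor of pluripotent cells, was at 510 and 403 FPKM in the Chd1-null libraries and at 599 and 541 FPKM in the controls. Chd1 itself stood at 5.71 and 8.52 FPKM in Chd1-null 1 and 2, against 27.6 and 17.9 FPKM in control 1 and 2. It fell by 1.66 on the log2 scale (limma SE 0.25, adjusted p = 1.8e-08). Which exons Cre removes is not stated, and these values span the entire locus. The call rests on set as a block, and without it Chd1 did not pass (limma adjusted p = 0.461).

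Promoters of 4 of the 9 members could be matched by symbol to RefSeq (build GRCm38.p6), and these 4 are shown. Fgf5 and T were on opposite sides of the set medians in the 2 sets, while Foxd3 and Otx2 were above both. Each line gives the 250 bases before the annotated start, 5′ to 3′, with CpG dinucleotides in capitals, and for Otx2 the farthest upstream of its starts.
Fgf5, chr5:98253934-98254183, + strand: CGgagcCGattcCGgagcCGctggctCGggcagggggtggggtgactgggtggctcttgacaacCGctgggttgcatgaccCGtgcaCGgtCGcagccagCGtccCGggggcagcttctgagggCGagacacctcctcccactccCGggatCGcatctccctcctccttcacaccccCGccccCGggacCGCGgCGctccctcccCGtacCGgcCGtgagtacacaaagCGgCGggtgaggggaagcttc
T, chr17:8434173-8434422, + strand: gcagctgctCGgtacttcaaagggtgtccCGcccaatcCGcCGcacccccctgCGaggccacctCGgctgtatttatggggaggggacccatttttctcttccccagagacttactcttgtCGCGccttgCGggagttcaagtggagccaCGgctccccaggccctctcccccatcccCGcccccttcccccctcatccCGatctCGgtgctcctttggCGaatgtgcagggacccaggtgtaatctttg
Foxd3, chr4:99656049-99656298, + strand: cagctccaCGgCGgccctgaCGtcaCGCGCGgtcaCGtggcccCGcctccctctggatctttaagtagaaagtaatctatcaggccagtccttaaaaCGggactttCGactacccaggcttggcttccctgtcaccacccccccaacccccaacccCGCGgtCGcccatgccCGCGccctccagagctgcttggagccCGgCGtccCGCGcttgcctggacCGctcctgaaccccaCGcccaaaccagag
Otx2, chr14:48667645-48667894, - strand: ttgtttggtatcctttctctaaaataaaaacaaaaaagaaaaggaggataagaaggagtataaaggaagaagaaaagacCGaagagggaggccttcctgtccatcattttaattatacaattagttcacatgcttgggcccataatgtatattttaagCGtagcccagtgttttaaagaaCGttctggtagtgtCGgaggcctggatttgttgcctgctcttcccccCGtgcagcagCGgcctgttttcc
The Fgf5 promoter holds 24 CpG dinucleotides, more than 88.0% of 32851 RefSeq promoters of the same length, and that of Foxd3 holds 21, more than 83.7%. The T promoter holds 14, more than 70.6%, and the Otx2 window holds 6, the median of all promoters. On either strand, the POU octamer ATGCAAAT (in 1.60% of all promoters), the OTX site TAATCC (6.25%) and the T-box core TCACACCT (1.12%) did not occur in these 4 windows. The TATA box letters TATAAA, found in 12.4% of all promoters, occurred once, in the Otx2 window. The windows of Otx2 starts 2, 3 and 4, counted from upstream and not shown, hold 8, 14 and 9 CpG dinucleotides and 0 TATAAA. That of start 3 holds 1 OTX site TAATCC. Both Fgf5 and Foxd3 thus have promoters rich in CpG. A relation of CpG content to the values below was not tested.

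The markers spanned a wide range of levels. Pou3f1, a POU factor also called Oct6, had the highest mean over the 4 libraries (23.8 ± 15.9 FPKM, SD, n = 4), followed by the zinc finger factor Zic2 (11.9 ± 1.80), the forkhead factor Foxd3 by its higher locus (11.5 ± 0.509) and the homeobox factor Otx2 (8.29 ± 0.603). Below them came Fst (2.79 ± 0.611), Cdh2 (2.47 ± 0.862), Sox3 (1.63 ± 1.27), Fgf5 (1.19 ± 0.831) and T (0.852 ± 0.612). The rank of Pou3f1 rests on set 2, since in set 1 Foxd3 lay above it in both libraries. Neighbours in this order overlapped in range, except that Otx2 lay below Foxd3 and above Fst in every library. Both sets have their own table, so levels across sets depend on the scaling of each. On that scale Pou3f1 and Sox3 differed more between sets than within them. Pou3f1 was 2.64-fold and Sox3 7.61-fold higher in control 2 than in control 1.

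**Figure D1:**
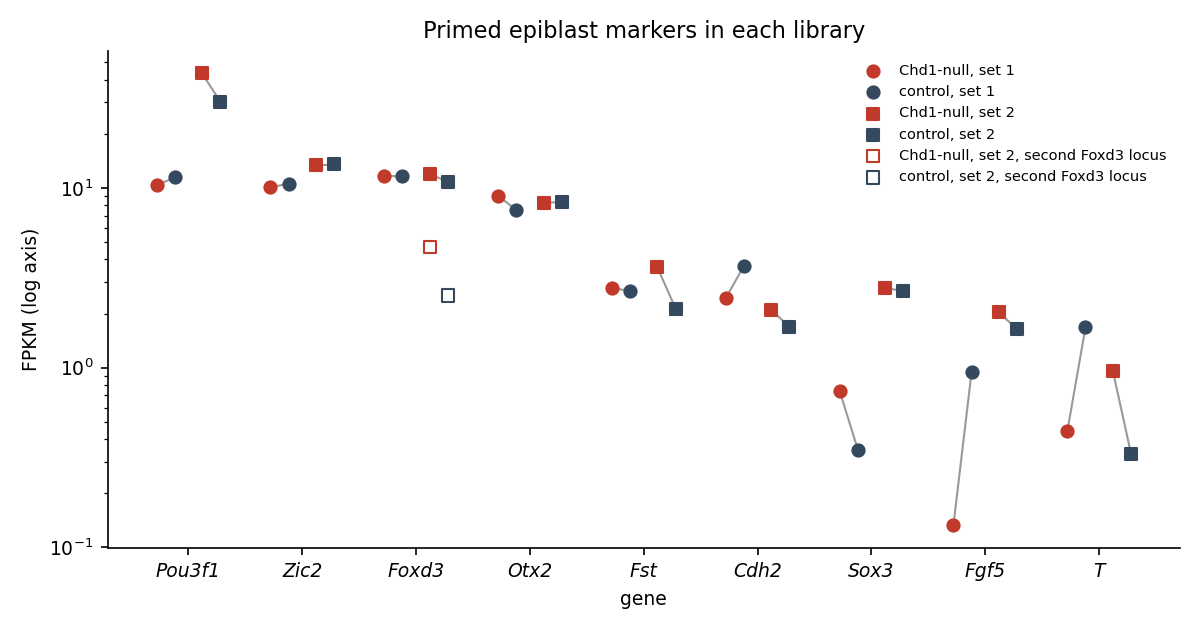
FPKM on a log axis (vertical) of 9 primed epiblast markers (horizontal, in order of mean level) in each of 4 libraries, with red for Chd1-null, dark blue for control, circles for set 1 and squares for set 2, a line joining the libraries of a set, and open squares for the second Foxd3 locus of set 2. The 4 most abundant markers differ little between the groups of a set, apart from Pou3f1 in set 2, while Fgf5 and T move in opposite directions in the sets.

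Of the 9 markers, 7 entered the test across genes. T had a mean under 1 FPKM and Foxd3 had 2 loci in set 2, so their fitted values below come from fits without the filter (T) and with the set 2 loci summed (Foxd3). As deposited, 0 of 7 fell and 0 rose in Chd1-null cells (limma, adjusted p under 0.05; 0 of 7 at an unadjusted p under 0.05, where 29.2% of all genes were). Over all 10261 genes tested, 9.8% fell and 0.0682% rose. These calls, and those of every gene said to fall below, rest on the set block and on a variance that follows level: 1006 genes fell and 7 rose, but 0 passed either way without the block or with 1 common prior variance (limma, 1043 and 1718 genes at an unadjusted p under 0.05). Scaled to library totals, 37 fell and 50 rose. Against the set medians 0 of 7 passed in either direction, where 0.156% of all genes fell and 0.127% rose; Pou3f1 and Fst had unadjusted p-values of 0.0183 and 0.0457, and 5.83% of all genes were under 0.05. With 2 pairs, an exact sign-flip test of a single gene cannot go below p = 0.5. Each 95% interval below takes its width from the spread between sets that limma shares among genes of similar level. Since the prior degrees of freedom were Inf, disagreement between the sets of one marker does not widen its interval. For T both log2 ratios, -1.71 and 1.30, lie outside its interval of -1.52 to 1.11. Those of Fgf5, -2.17 and 0.30, lie inside -2.50 to 0.62. The intervals can thus be too narrow for markers whose sets disagree.

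As deposited, 3 of the 9 markers were higher in Chd1-null cells in both sets (Foxd3, Sox3 and Fst), 1 was lower in both (Zic2) and 5 had opposite signs in the sets. Among all genes tested 2.81% were higher in both sets, 72.4% lower in both and 24.8% opposite. A ratio above 1 was found for 4 of 9 in set 1 (13.4% of all genes there) and for 7 of 9 in set 2 (22.9%). Read against the set medians, 6 of the 9 markers were above both, 0 were below both, and 3 were on opposite sides. Among all genes tested 24.1% were above both medians, 24.2% below both and 51.7% on opposite sides. The 6 were Pou3f1, Otx2, Zic2, Foxd3, Sox3 and Fst. In set 1, 6 of 9 were above the median ratio, and in set 2 all 9, where by construction 50.0% of genes are. At least 1.5-fold above the median were 2 in set 1 (9.22% of all genes there) and 5 in set 2 (11.2%), and at least 1.5-fold below were 2 in set 1 (17.5%) and 0 in set 2 (9.49%). The median marker lay 0.42 above the set median in set 1 and 0.60 above it in set 2 on the log2 scale, beside 0.03 and -0.02 for all genes tested. The members were chosen with earlier results of these data known, so these counts describe the 9 and carry no test.

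**Figure D2:**
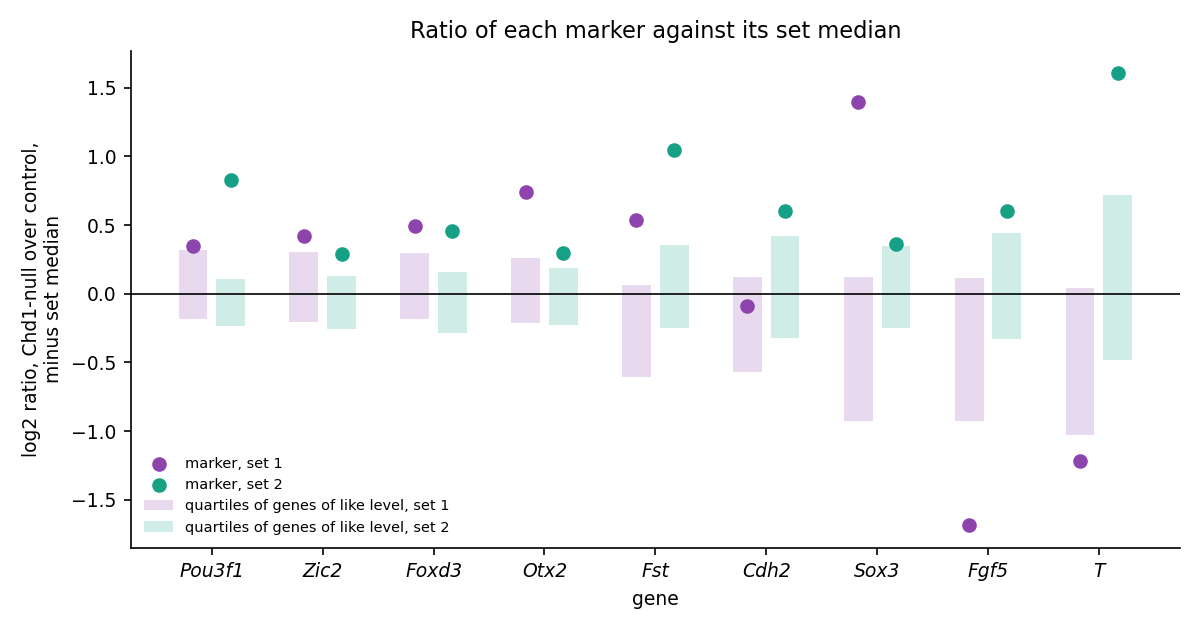
Log2 ratio of Chd1-null over control minus the set median (vertical) for 9 markers in order of mean level (horizontal), with purple points for set 1, green points for set 2 and pale bars from the lower to the upper quartile of the 500 genes nearest in level in the same set. In set 2 all 9 points are above 0, and in set 1 Fgf5 (-1.69), T (-1.22) and Cdh2 (-0.09) are below it.

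Among the transcription factors induced on exit from the naive state, Otx2 differed by 1.20-fold between the libraries of set 1 and by less in set 2. It had 9.02 and 8.27 FPKM in Chd1-null 1 and 2, against 7.55 and 8.33 FPKM in control 1 and 2. The groups overlapped. Its log2 fold change was 0.12 (95% interval -0.44 to 0.68), and against the set medians 0.52 (-0.02 to 1.06; limma adjusted p = 0.886). Among the 500 genes nearest in level it ranked at percentile 95.8 in set 1 and 85.8 in set 2.

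Pou3f1 had 10.3 and 43.3 FPKM in Chd1-null 1 and 2, against 11.4 and 30.2 FPKM in control 1 and 2. The groups overlapped because set 2 was far above set 1 in both. The ratio of Chd1-null to control was 0.903 in set 1 and 1.44 in set 2, and 1.27 and 1.78 times the median ratio of the set. Among genes of like level the ratio ranked at percentile 77.6 in set 1 and 99.6 in set 2. The relative log2 fold change was 0.59 (95% interval 0.10 to 1.08), and the limma adjusted p over all genes was 0.658.

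Zic2, a zinc finger factor of the epiblast and neural plate, stood at 10.1 and 13.3 FPKM in Chd1-null 1 and 2, against 10.6 and 13.5 FPKM in control 1 and 2. Its ratios of 0.955 and 0.987 were the closest to each other of any member, and the groups overlapped through the difference between sets. The fold change against the set medians was 0.36 on the log2 scale (95% interval -0.15 to 0.87, limma adjusted p = 0.999).

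Foxd3 had 11.6 and 12.0 FPKM in Chd1-null 1 and 2 at its higher locus, against 11.6 and 10.8 FPKM in control 1 and 2. Its second locus in set 2 stood at 4.68 FPKM in Chd1-null 2 against 2.52 FPKM in control 2, a ratio of 1.86 where the higher locus gave 1.11. The groups did not overlap at the higher locus (0.867% of all genes had separate groups with Chd1-null higher), but in set 1 they were equal to 3 digits. With the loci summed, which adds the second locus in set 2 alone, the log2 fold change was 0.16 (95% interval -0.31 to 0.64). Against the set medians the summed value was 0.56 (0.06 to 1.07, limma adjusted p = 0.766). By the higher locus the log2 fold change was 0.08, and 0.48 against the set medians (limma adjusted p = 0.915). What the second locus represents is not given in the sources used here.

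Sox3, a SoxB1 factor of epiblast and neural ectoderm, had 0.744 and 2.77 FPKM in Chd1-null 1 and 2, against 0.350 and 2.67 FPKM in control 1 and 2. Both sets had a ratio above 1 (2.12 and 1.04), and the large one came from the 2 lowest values. Its log2 fold change of 0.48 had a 95% interval of -0.85 to 1.81, and 0.88 against the set medians (-0.30 to 2.06; limma adjusted p = 0.999). T, the T-box factor of the primitive streak, had 0.441 and 0.961 FPKM in Chd1-null 1 and 2, against 1.67 and 0.332 FPKM in control 1 and 2. The ratio was 0.264 in set 1 and 2.89 in set 2, the widest gap between sets among the members (3.01 between the differences in log2(FPKM + 0.1), of -1.71 and 1.30). The groups overlapped, and the log2 fold change was -0.21 (95% interval -1.52 to 1.11, limma adjusted p = 0.845), and 0.19 against the set medians (-0.98 to 1.36).

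The ligand Fgf5 signals through FGF receptors. It had 0.133 and 2.03 FPKM in Chd1-null 1 and 2, against 0.951 and 1.63 FPKM in control 1 and 2. Chd1-null 1 was the low library, close to the lowest value of its table (0.1001), and the other 3 libraries lay within a narrower range. Chd1-null over control was 0.140 in set 1 and 1.24 in set 2. On the log2 scale the fitted change was -0.94 (95% interval -2.50 to 0.62, limma adjusted p = 0.400), and against the set medians -0.54 (-1.96 to 0.88; adjusted p = 0.999). In set 1 its ratio ranked at percentile 4.60 among genes of like level, and there the middle of such genes itself lay at a log2 ratio of -0.91. In set 2 the ratio of Fgf5 ranked at percentile 82.6.

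Fst, which binds and blocks activin, had 2.77 and 3.61 FPKM in Chd1-null 1 and 2, against 2.68 and 2.13 FPKM in control 1 and 2. Both Chd1-null libraries were above both controls, as for 0.867% of all genes tested. The ratio was 1.03 in set 1 and 1.70 in set 2, or 1.45 and 2.06 times the median ratio. The fitted log2 change was 0.39 (95% interval -0.50 to 1.28), and 0.79 against the set medians (0.02 to 1.56; limma adjusted p = 0.835). Cdh2, the N-cadherin that epiblast cells take up as they leave the epithelium at the streak, had 2.44 and 2.09 FPKM in Chd1-null 1 and 2, against 3.68 and 1.69 FPKM in control 1 and 2. Control 1 was the high library. Its ratios of 0.661 and 1.24 gave a log2 fold change of -0.14 (95% interval -1.10 to 0.82, limma adjusted p = 0.842), and 0.26 against the set medians (-0.57 to 1.09; adjusted p = 0.999).

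Partners of these secreted factors, and the pathways they act in, were followed as well. In a list of 20 FGF and activin pathway genes, which includes Fgf5, 14 entered the test. Of the 14, 3 fell and 0 rose, beside 9.8% and 0.0682% of all genes tested. These were Fgf4, the main FGF of the inner cell mass (log2 fold change -0.69, limma adjusted p = 0.0040), and the feedback inhibitors Spry2 (-0.77, adjusted p = 0.0147) and Spry4 (-1.10, adjusted p = 0.0043). Against the set medians 0 of the 14 passed, with adjusted p = 0.999 for Fgf4 and Spry2 and 0.520 for Spry4. Fgf4 is counted again among the paralogs and the naive genes below. The activin and inhibin subunit gene Inhbb had 1.02 and 0.691 FPKM in Chd1-null 1 and 2, against 3.00 and 2.73 FPKM in control 1 and 2, with a fitted log2 change of -1.66 (adjusted p = 0.0539). For the activin receptor Acvr1b the fitted change was -0.80 (adjusted p = 0.146). On the log2 scale the middle of the 14 ratios lay at -1.02 in set 1 and at -0.28 in set 2, beside -0.46 and -0.33 over all genes tested.

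Other genes of the formative and primed state did not all behave like the 9 markers. Of 32 listed, 29 were tested, and 7 fell and 0 rose, where 9.8% of all genes tested fell. The pluripotent chromatin factor Utf1 fell by 1.12 (limma SE 0.18, adjusted p = 3.1e-07) and the keratin Krt18 fell by 0.92 (SE 0.18, adjusted p = 8.5e-05), and Enah, Tdgf1, Zscan10 and Lefty2 also fell. Against the set medians 0 of the 29 passed, with adjusted p = 0.321 for Utf1 and 0.791 for Krt18. Utf1 and Tdgf1 also stand in the core pluripotency list. The zinc finger factor Sall2 had 3.45 and 8.53 FPKM in Chd1-null 1 and 2, against 2.87 and 7.63 FPKM in control 1 and 2, without passing (adjusted p = 0.668). Against the set medians 8 of the 29 were above both and 8 below both, and the median gene lay at 0.10 and -0.04.

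Among 24 paralogs of the members, 10 were tested, and 3 fell, where 9.8% of all genes tested did. Those that fell include Fgf4 and Sox2 (log2 fold change -0.51, limma adjusted p = 0.0351). Of the 10, 0 passed against the set medians (adjusted p = 0.999 for Fgf4 and Sox2). None of the 10 was above both set medians, and 4 were below both. Tbx3, a T-box factor of the naive state, had 3.73 and 0.938 FPKM in Chd1-null 1 and 2, against 8.27 and 1.27 FPKM in control 1 and 2 (adjusted p = 0.259).

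The naive pluripotency genes gave other counts than the markers. Of 16 tested, 12 fell and 0 rose as deposited, where 9.8% of all genes tested fell. The 12 include Klf5 (limma adjusted p = 0.0374), which was lower in set 1 alone (log2 ratios of -1.96 and 0.19). Of the 16, 13 were below both set medians and 0 above both, beside 24.2% and 24.1% of all genes tested. Nanog had 43.3 and 33.8 FPKM in Chd1-null 1 and 2, against 101 and 73.9 FPKM in control 1 and 2, and fell by 1.17 (limma adjusted p = 4.3e-08). Esrrb fell by 1.22 (adjusted p = 1.9e-07), Klf4 by 1.23 (adjusted p = 0.00016), Nr0b1 by 1.23 (adjusted p = 4.9e-07) and Klf2 by 1.53 (adjusted p = 6.3e-05). Against the set medians 1 of the 16 fell and 0 rose: Klf2 passed (relative log2 change -1.13, adjusted p = 0.0286), with -2.09 in set 1 and -0.17 in set 2. Nanog (adjusted p = 0.237), Esrrb (0.132), Klf4 (0.205) and Nr0b1 (0.129) did not pass there. Zfp42 fell by 0.57 (adjusted p = 0.0369), almost all of it in set 2 (log2 ratios of -0.07 and -1.06), whereas Prdm14, with a fitted change of -1.39, missed the threshold (adjusted p = 0.0614). The median naive gene had a log2 ratio of -1.15 in set 1 and of -0.82 in set 2, and the median of the 7 tested markers had -0.07 and 0.30. In cultures measured in bulk, fewer cells of a state and less RNA per cell cannot be told apart. The naive genes were listed with earlier results of these data known, and no test of the lists against each other was made.

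**Figure D3:**
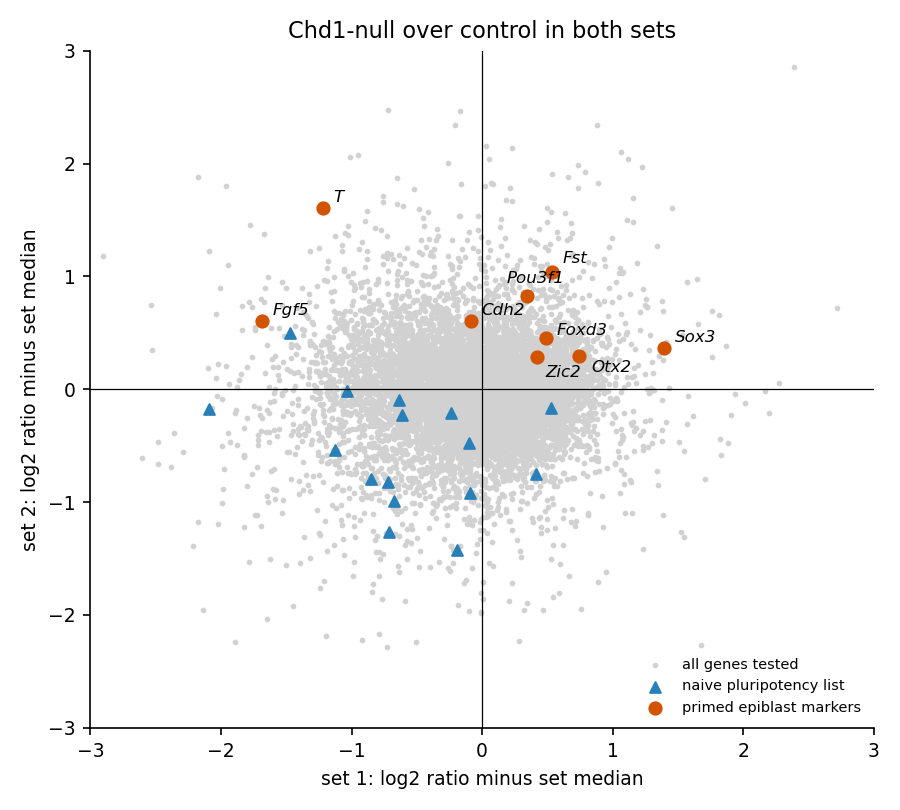
Log2 ratio of Chd1-null over control minus the set median in set 1 (horizontal) and in set 2 (vertical), with grey dots for 10261 genes tested (9 lie outside the plotted range), blue triangles for 16 naive pluripotency genes and orange dots for the 9 markers, named. Among the markers 6 lie in the upper right quadrant, and among the naive genes 13 lie in the lower left.

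The distance between both groups of genes was smaller in the Chd1-null library of each set. The median of the 9 markers minus that of the 16 naive genes, on the log2(FPKM + 0.1) scale, was -2.36 in Chd1-null 1 and -2.97 in control 1, and it was -1.39 in Chd1-null 2 and -2.85 in control 2. The difference between the 2 medians was thus 0.61 higher in Chd1-null cells in set 1 and 1.46 higher in set 2. Without T, Fgf5 and Sox3, the 3 lowest markers, it was 1.11 higher in each set. The markers' median was 1.52 in Chd1-null 1 and 1.92 in control 1, and 1.89 in Chd1-null 2 and 1.47 in control 2. With 9 markers it is the value of 1 gene: Fst in both Chd1-null libraries, Cdh2 in control 1 and Sox3 in control 2. Its direction, and the size of the differences above, thus depend on which gene lies in the middle. The naive median was 3.87 in Chd1-null 1 and 4.89 in control 1, and 3.28 in Chd1-null 2 and 4.32 in control 2, so that the naive median was lower in Chd1-null cells in both sets and the markers' median was not. As deposited, 14 of the 16 naive genes were lower in both sets, and Klf5 (log2 ratios -1.96 and 0.19) and Dppa3 (0.0350 and -0.48) had opposite signs.

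**Figure D4:**
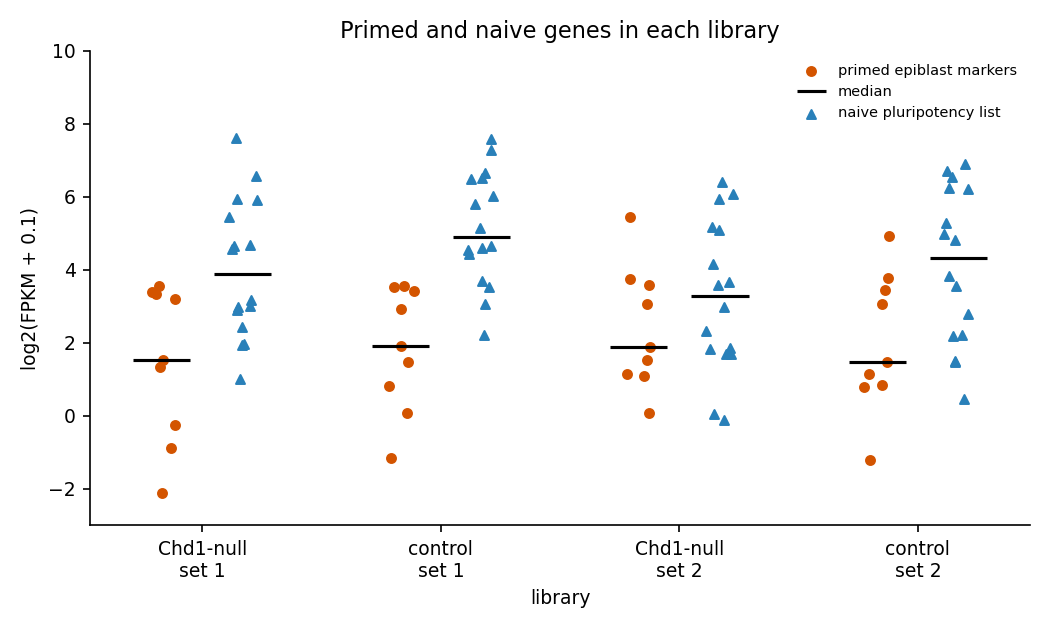
Log2(FPKM + 0.1) (vertical) of 9 primed epiblast markers (orange dots) and 16 naive pluripotency genes (blue triangles) in each of 4 libraries (horizontal), with a line at each median. The naive medians are lower in the Chd1-null library of each set (3.87 against 4.89, and 3.28 against 4.32). The marker medians, which are values of different genes across the libraries, go opposite ways.

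Genes of later or other lineages were counted in the same way, and against the set medians 0 of those tested passed. The counts as deposited stand beside 9.8% of all genes tested that fell. Of 14 gastrulation genes 6 were listed in either set and 1 was tested, Wnt8a, a Wnt ligand, with 1.10 and 14.2 FPKM in Chd1-null 1 and 2, against 0.567 and 7.29 FPKM in control 1 and 2 (limma adjusted p = 0.155). It was 1.30 above the set medians on the log2 scale, where the adjusted p was 0.129. Of 12 neural genes 7 were listed and 6 tested, and 1 fell, the tubulin Tubb3 (by 1.02, adjusted p = 0.00042), while the intermediate filament Nes had a fitted value of 0.31 (adjusted p = 0.384). Summed over the tested neural genes, values were 32.5 and 30.9 FPKM in Chd1-null 1 and 2, against 51.9 and 38.0 FPKM in control 1 and 2. The fibroblast and feeder list, which could mark other cells of a culture, had 8 of 10 listed and 4 tested, of which 1 fell, Fn1. That fall came from set 1, with 17.7 and 17.1 FPKM in Chd1-null 1 and 2, against 42.5 and 16.8 FPKM in control 1 and 2. The sum over the tested genes of this list was 78.6 and 117 FPKM in Chd1-null 1 and 2, against 103 and 157 FPKM in control 1 and 2. Nearly all of it was from Vim and Fn1, which stem cells also express. Of 12 primitive endoderm genes 8 were listed and 4 tested, and 1 fell, Lama1, with summed values of 49.6 and 57.8 FPKM in Chd1-null 1 and 2, against 79.4 and 69.1 FPKM in control 1 and 2. Of 8 trophectoderm genes 5 were listed and 4 tested, and 1 fell, Tfap2c, with summed values of 21.7 and 9.31 FPKM in Chd1-null 1 and 2, against 43.2 and 17.3 FPKM in control 1 and 2. The endoderm factor Sox17 and the trophoblast factor Elf5 were listed in neither table. The part of such cells in the markers' values was not tested. Of 8 core pluripotency genes 5 fell, among them Sox2, Sall4 and L1td1, and for Pou5f1 the fitted change was -0.33 (adjusted p = 0.200). Of the 8, 0 passed against the set medians, with adjusted p = 0.999 for Sox2, Sall4 and L1td1.

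The genes whose pattern over the 4 libraries was most like that of the 2 markers of highest mean named once in each table were found by Euclidean distance of centred log2 values. For Pou3f1 they were Tmem191c (distance 0.239), Mmp25 (0.326) and Mapk4 (0.335), all much higher in set 2, and 16 genes lay within 0.5. For Zic2 they were Srprb (0.0374), Mdfi (0.0401) and Paxbp1 (0.0591), and 2330 genes lay within 0.5, so its pattern is a common one.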

How the data were processed

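RNA-seq of 4 libraries (2 Chd1-null, 2 control) was deposited as 1 table per set. The deposited values were taken as FPKM, a unit that the headers leave unnamed. Per the submitters' processing notes, the build was mm9 and the tools were Cufflinks 2.2.0, Cuffdiff, TopHat and TopHat2 2.0.10. What each tool did, which annotation was used and how the ERCC transcripts entered are not stated there. The deposited ratio column equalled the quotient of the value columns to within a relative difference of 4.97e-06. No value was under 0.100, so lower loci were not analysed here.

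Genes with 1 symbol that occurred once in both tables were joined (11728), of which 10261 had a mean of 1 FPKM or more and were tested on log2(FPKM + 0.1), a scale that understates changes of low genes. Limma 3.58.1 in R 4.3.3 (variance trend on level, two-sided, Benjamini-Hochberg at 0.05) had set as a block, because each set is a table of its own; same-set deviations correlated across genes (r = 0.483). The labels do not say whether sets are separate lines, so p-values measure the spread between these sets, shared among genes of like level (prior degrees of freedom Inf). Relative values subtract the median log2 ratio of genes named once in the table. The test was run on simulated data whose noise depended on level alone, with no difference between sets. Such data follow the fitted variance model, so that run cannot show how far the calls rest on it. Alternatives were pseudocounts, filters, variance models, other medians, library totals, removal of the level trend and left-out libraries. Named genes are the members, Chd1, 5 pluripotency genes, and per list up to 3 with the largest relative change of 1 sign in both sets; others named beside a count were chosen after their values were seen. Members and lists were chosen with earlier results of these data known.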

Additional observations from a re-analysis of the deposited data

Results flagged for a closer look

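For 5 markers the log2 ratio of Chd1-null over control had opposite signs in the 2 sets, as it had for 24.8% of all genes tested. With 1 library per group in each set, the difference between sets was not tested. T had -1.71 in set 1 and 1.30 in set 2, and Fgf5 had -2.17 and 0.30, both at low levels. Cdh2 had -0.58 and 0.30, Pou3f1 had -0.15 and 0.52, and Otx2 had 0.25 and -0.0109.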

How the results depend on the processing

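None of the 7 tested markers passed the threshold under any alternative run, nor did T without the filter or Foxd3 with either handling of its loci. As deposited, 1006 genes fell and 7 rose. The counts were 225 and 2 with a mean of at least 5 FPKM, 37 and 50 scaled to library totals, and 0 and 0 with one common prior variance or without the replicate block (lowest adjusted p = 0.288 and 0.461; 1718 and 1043 genes at an unadjusted p under 0.05). With a pseudocount of 1, 4 rose. Against the medians 16 fell and 13 rose. Here 28 fell with a pseudocount of 1, 35 fell with one common prior variance, 7 rose with a mean of at least 5, and 0 fell and 0 rose without the block or with the level trend removed (lowest adjusted p = 0.9997 and 0.0688; 141 and 755 unadjusted). Leaving out 1 library without the block, 0 fell and 0 rose as deposited, and against the medians 0 to 13 fell and 0 to 19 rose. The lone library of a group is there assumed to vary like the other group. Without a whole set a value has no test.

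Scaling to library totals moved the median of all genes by 0.31 in set 1 and 0.46 in set 2. Zic2 then had 0.35 and Cdh2 0.24 in place of values below 0, and 6 and 9 markers still lay above the medians. With a pseudocount of 1, the relative change of Fgf5 was 0.0203. Values as deposited in set 1 and set 2 alone were -2.17 and 0.30 for Fgf5, 0.25 and -0.0109 for Otx2, -0.15 and 0.52 for Pou3f1, -0.58 and 0.30 for Cdh2. Without 1 library, and without the block, values as deposited turned to 0.66 for Fgf5, -0.51 and -0.84 for Pou3f1, -0.83 and -0.40 for Sox3, 0.16 and 0.13 for Zic2, 0.40 for Cdh2. Values against the medians in set 1 and set 2 alone were -1.69 and 0.60 for Fgf5, -0.0879 and 0.61 for Cdh2. Without 1 library, and without the block, values against the medians turned to 1.00 for Fgf5, -0.0876 and -0.31 for Pou3f1, -0.41 for Sox3, -0.23 for Cdh2. With the level trend removed, 7 and 9 markers lay above it. Chd1 lost its call in the relative comparison then (adjusted p = 0.351), as it did in both comparisons with one common prior variance, without the block and with a library left out. The handling of Foxd3 and the removal of the 3 lowest markers were chosen after seeing the data.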
